A study of Mus musculus with 12 samples.

Results

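The genes for the transcription factors Cux1, Cux2, Rorb, Bcl6 and Mef2c were followed through the cell classes of the newborn mouse forebrain. They were chosen by symbol, and all 5 were found among the 55335 genes listed. Single-nucleus RNA sequencing (snRNAseq) had been performed on flash-frozen forebrain of MYT1L S710fsX mice at postnatal day 1 (P1). The strain carries a frameshift allele of Myt1l, which encodes a zinc finger transcription factor of neurons. There were 8 WT libraries (5 male and 3 female) and 4 Het libraries (3 male and 1 female), and Het animals carry 1 copy of the allele from the germline, so every cell of the animal has it. No other treatment or transgene was named for either group. Libraries are called by genotype, sex and the replicate number of the labels, such as Het male 1.

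Excitatory neurons of the cortex are born in sequence, deep layers first, and upper-layer neurons reach their place last, after migrating past the older ones. Cux1 and Cux2 are homeobox factors that mark upper-layer neurons and shape their dendrites and synapses. Rorb is an orphan nuclear receptor that marks layer 4, Bcl6 is a zinc finger repressor that promotes neurogenesis, and Mef2c is a MADS-box factor that acts in neuronal differentiation and synapse number and is also made by microglia and interneurons.

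The files held 126684 barcodes, of which 98111 nuclei passed the count filters, between 4636 and 11478 per library, and no barcode was shared between libraries. The median nucleus had 1941 unique molecular identifiers (UMIs, tags that each mark 1 captured RNA molecule), and library medians ran from 1751 to 2098. Nuclei were put into 20 classes by UMIs of marker genes. Of the members, Rorb was the 1 gene used in these markers. Another 14362 nuclei (14.6%) had markers of more than 1 lineage and 20013 (20.4%) passed no class, and both were left out. The level of Myt1l over all kept nuclei was 1271 to 1607 UMIs per 1000000 (CPM) in the WT libraries and 1526 to 1646 CPM in the Het libraries. Since UMIs of the frameshift allele are counted too, this level does not check the genotype.

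A total of 5151 upper-layer nuclei formed the immature gate, with at least 2 UMIs of Unc5d (a netrin receptor of migrating upper-layer neurons), the immature marker list at 2-fold or more above its expectation and no Rorb UMI. The Rorb gate held 2739 upper-layer nuclei with at least 2 UMIs of Rorb, fewer than 2 of Unc5d and a low immature score. A further 16153 upper-layer-like nuclei met neither rule. Together these groups are the upper-layer set, which took nuclei named by the upper-layer list or by a general excitatory list. Excitatory nuclei that no layer list named are therefore in it. In the immature gate 9 of 9 immature markers were raised, Unc5d, Tiam2, Nrp1, Cntn2, Sox11, Sox4, Dcx, Rnd2 and Neurod1. In the Rorb gate 2 of 4 markers of its own list were raised, Rorb and Kcnh5, so it is described as a gate and not as a cell type. The immature gate was the shallower, with a median of 1509 UMIs per nucleus against 2680 in the Rorb gate.

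The 5 genes had different rankings over the classes. By their mean, Cux1, Cux2 and Bcl6 were highest in the immature gate, and Mef2c was highest in the Rorb gate. For Bcl6 the order of the gates turned when nuclei were thinned to 800 UMIs and gated anew (92.9 CPM in the immature and 108 CPM in the Rorb gate). For Cux1 it turned with the mature gate set without Rorb, described further on (811 and 874 CPM). Levels below are sums of UMIs over the nuclei of a class in a library, divided by that library's sum of all UMIs in the class, and are compared within a gene, since they are not scaled to gene length.

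**Figure D1:**
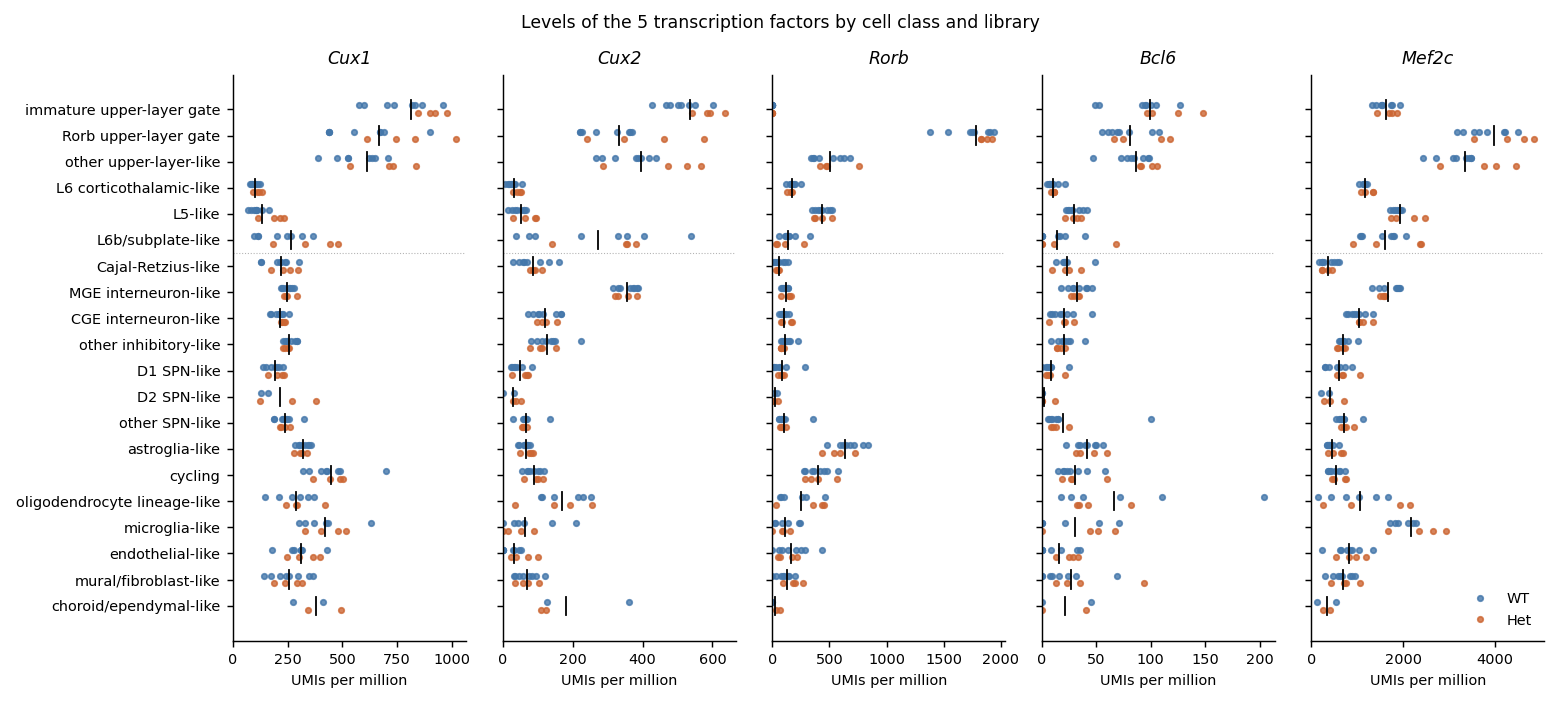
Level of each gene (horizontal axis, CPM on a linear scale from 0) in the 20 marker-gated classes (rows), with 1 point per library, blue for WT and orange for Het, and a black bar at the mean over libraries. Cux1, Cux2 and Bcl6 stand highest in the immature gate with means of 811, 536 and 98.9 CPM (at unthinned depth and with these gates), and Mef2c stands highest in the Rorb gate with 3976 CPM.

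Cux1 (ENSMUSG00000029705.17) lies on the minus strand at chr5:136248135-136567490 of GRCm38. It averaged 811 ± 132 CPM (SD, n = 12 libraries) in the immature gate, 667 ± 186 CPM in the Rorb gate and 612 ± 127 CPM in the other upper-layer-like nuclei. These neighbours lie within their spread of each other. Cycling-like nuclei followed at 449 ± 98.2 CPM, microglia-like at 422 ± 101 CPM and astroglia-like at 318 ± 25.2 CPM. MGE interneuron-like nuclei had 249 ± 23.2 CPM. The lowest classes were L5-like nuclei at 133 ± 53.2 CPM and L6 corticothalamic-like nuclei at 102 ± 18.3 CPM. L6b and subplate-like nuclei, the third deep-layer class, were higher at 263 ± 127 CPM. UMIs of Cux1 were counted in every class, glia included. The annotated genes A430110C17Rik, Mir721 and Gm38082 overlap Cux1 on its strand, so UMIs from the shared stretches are uncertain. Antisense genes overlap Cux1 (Gm16599), Cux2 (Gm3970 and Gm15637) and Bcl6 (Gm37419), and whether counting used strand was not stated in what was read here.

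Cux2 (ENSMUSG00000042589.18, chr5:121856366-122050102, minus strand) covered a wider range than Cux1 as a ratio of highest to lowest class mean, but a narrower range in CPM. Its mean was 536 ± 61.3 CPM in the immature gate, 396 ± 96.1 CPM in the other upper-layer-like nuclei and 332 ± 108 CPM in the Rorb gate. MGE interneurons are known to use Cux2 as well, and nuclei like them stood among these at 355 ± 26.5 CPM. L6b and subplate-like nuclei came next at 274 ± 157 CPM, with libraries from 39.2 to 539 CPM, a spread that overlaps the Rorb gate. L6 corticothalamic-like nuclei had 32.3 ± 15.2 CPM and L5-like nuclei 53.8 ± 24.7 CPM. Astroglia-like nuclei had 66.3 ± 13.8 CPM. The window around the 5′-most RefSeq start of Cux2 is shown, and that of Mef2c further on, because these 2 members were called between the gates. It holds 0 matches to the MYT1L core motif (GRCm38.p6, chr5:122049802-122050101, minus strand, 80.3% GC against a median of 52.7% over all windows):
Cux2: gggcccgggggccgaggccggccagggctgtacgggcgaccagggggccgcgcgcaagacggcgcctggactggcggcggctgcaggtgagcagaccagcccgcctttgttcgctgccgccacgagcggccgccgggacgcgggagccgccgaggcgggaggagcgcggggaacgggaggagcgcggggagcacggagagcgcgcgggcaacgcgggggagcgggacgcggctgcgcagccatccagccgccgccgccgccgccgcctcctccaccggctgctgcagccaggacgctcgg

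Bcl6 (ENSMUSG00000022508.5, chr16:23965052-23988852, minus strand) was measured from few UMIs, 909 in the immature gate and 635 in the Rorb gate over 12 libraries. It averaged 98.9 ± 28.0 CPM in the immature gate, 86.8 ± 15.8 CPM in the other upper-layer-like nuclei and 81.4 ± 21.5 CPM in the Rorb gate, all within their spread. Oligodendrocyte lineage-like nuclei had 66.1 ± 56.3 CPM from 24 UMIs in 10 libraries. Astroglia-like nuclei were at 41.9 ± 10.99 CPM, L5-like nuclei at 30.0 ± 6.55 CPM and L6 corticothalamic-like nuclei at 10.3 ± 4.35 CPM. D1 spiny projection neuron-like nuclei were at 8.68 ± 7.63 CPM, and D2-like ones had 1 UMI in 5 libraries.

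Rorb (ENSMUSG00000036192.15, chr19:18930605-19111196, minus strand) was fixed by the gates in both upper-layer groups, at 1779 ± 168 CPM in the Rorb gate and 0.416 ± 0.540 CPM in the immature gate. Over upper-layer nuclei as a whole, whichever gate they met, those with 2 or 3 Rorb UMIs had 900.0 ± 46.0 CPM and those with 1 had 413 ± 30.2 CPM, levels that the binning itself fixes. Outside the cortical layers that the rule used, astroglia-like nuclei had 638 ± 122 CPM, and their 12 libraries ran from 436 to 842 CPM. L5-like nuclei had 433 ± 63.6 CPM and cycling-like nuclei 401 ± 103 CPM, and these neighbours overlap. L6 corticothalamic-like nuclei had 172 ± 34.1 CPM and MGE interneuron-like nuclei 118 ± 29.3 CPM.

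Mef2c (ENSMUSG00000005583.16, chr13:83504034-83667080, plus strand) was the member with the most UMIs, 30910 in the Rorb gate and 14562 in the immature gate. It averaged 3976 ± 544 CPM in the Rorb gate and 3350 ± 568 CPM in the other upper-layer-like nuclei. Microglia-like nuclei, named after a cell type in which Mef2c is a known regulator, had 2162 ± 412 CPM over 10 libraries. Their 8 of 8 markers were raised, but Mrc1, Stab1 and F13a1, which are in no marker list, led this class. It may therefore not be microglia alone. L5-like nuclei had 1931 ± 216 CPM, MGE interneuron-like nuclei 1672 ± 204 CPM and the immature gate 1623 ± 191 CPM, of which the last 2 lie within their spread and the first is above them. L6 corticothalamic-like nuclei were at 1173 ± 89.9 CPM, astroglia-like nuclei at 455 ± 123 CPM and choroid-like nuclei at 331 ± 183 CPM. The 5′-most Mef2c window is AT-rich, with 35.7% GC, and holds the MYT1L core AAGTT or its reverse complement AACTT 4 times, shown in capitals (GRCm38.p6, chr13:83503784-83504083, plus strand):
Mef2c: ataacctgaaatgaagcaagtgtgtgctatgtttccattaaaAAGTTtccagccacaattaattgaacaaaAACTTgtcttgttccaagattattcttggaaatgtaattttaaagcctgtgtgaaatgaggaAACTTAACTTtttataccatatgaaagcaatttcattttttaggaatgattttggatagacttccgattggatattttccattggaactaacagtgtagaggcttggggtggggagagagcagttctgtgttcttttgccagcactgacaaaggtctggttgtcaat
AAGTT on either strand was in 39.3% of the 32851 RefSeq start windows of the same length, so a match describes the letters and no binding was measured. The other Mef2c windows hold 2 and 0 matches, the Cux1 window 1, the Bcl6 windows 1 and 0, and the other Cux2 window and both Rorb windows 0.

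Free RNA can set a floor under such levels. How much of the low levels of the members in glia came from free RNA was not tested.

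Genes whose class means followed each member most closely were sought by Pearson's r of mean log2(CPM + 1) over the 20 classes, among 6418 genes. Class means share libraries and depth, so r is a description. Cux2 was followed by Aff2 (r = 0.836), Gpm6a (0.758) and Lypd6 (0.737). For Bcl6 the closest were Masp1 (r = 0.845), Gm28175 (0.84) and Tshr (0.829). Mef2c was followed by Sla (r = 0.86), a gene that the gates used, Atp8a1 (0.833) and Gm49678 (0.832). For Rorb they were Gpc5 (r = 0.778), Adamts20 (0.7) and Gm37077 (0.645), with the levels of Rorb set in part by the gates. For Cux1 they were Ttc28 (r = 0.708), Arl15 (0.701) and Med13 (0.648). Between members, r ran from −0.101 for Cux1 and Rorb and −0.01 for Cux2 and Rorb to 0.561 for Cux1 and Cux2 and 0.659 for Cux2 and Bcl6.

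The immature and Rorb gates were then compared inside each library. Mef2c was 2.70-fold higher in the Rorb gate and Cux2 was 1.48-fold lower, while Cux1 and Bcl6 did not pass the test. With all deposited barcodes, shallow and deep ones included, Cux1 (−0.37 on the log2 scale, adjusted p = 6.15e-05 by edgeR, lower in 12 of 12 libraries) and Bcl6 (−0.23, adjusted p = 0.0239) were called lower too. The share of all genes called with these barcodes is not reported here, so the added calls cannot be set against it. Rorb was not tested, because the gates used it. Nuclei of both gates come from the same animals, so the library was a block in edgeR's quasi-likelihood test on summed counts. Of the 8409 genes tested 37.5% were called in either direction, 1681 higher and 1473 lower in the Rorb gate, at a Benjamini-Hochberg adjusted p under 0.05 and a log2 difference of at least 0.2. Of the 4 members tested 2 were called, 1 in each direction.

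**Figure D2:**
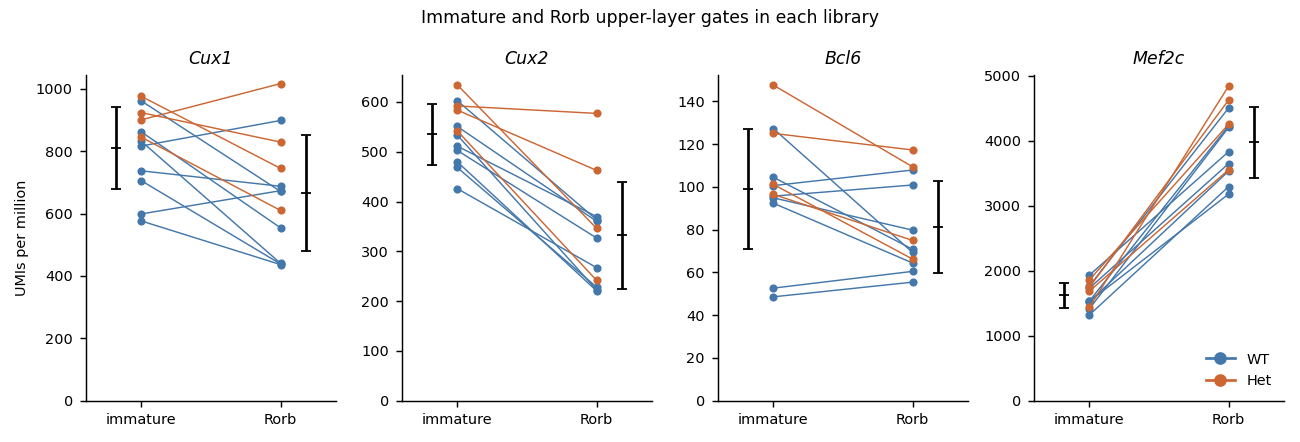
Level (vertical axis, CPM from 0) of Cux1, Cux2, Bcl6 and Mef2c in the immature and Rorb gates, with a line for each of the 12 libraries, blue for WT and orange for Het, and black bars for the mean and SD. Mef2c rises in 12 of 12 libraries with no overlap between the gates, and Cux2 falls in 12 of 12.

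For Mef2c the libraries ran from 1320.4 through a median of 1609.6 to 1932 CPM in the immature gate, and from 3180.0 through 4019 to 4842 CPM in the Rorb gate. The lowest library of the Rorb gate was above the highest of the immature gate. The ratio within a library was between 1.98 and 3.37. edgeR gave a log2 difference of 1.43 (SE 0.06, 95% interval 1.31 to 1.56, adjusted p = 3.72e-18).

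Cux2 ran from 426 through 538 to 634 CPM in the immature gate and from 221 through 337 to 577 CPM in the Rorb gate. The ranges overlap, but each library was lower in its Rorb gate, by ratios of 0.417 to 0.975. The log2 difference was −0.57 (SE 0.08, 95% interval −0.73 to −0.40, adjusted p = 1.15e-06 by edgeR).

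Cux1 went from 577 through 839 to 976 CPM in the immature gate and from 437 through 672 to 1017 CPM in the Rorb gate. It was lower in the Rorb gate in 9 of 12 libraries, with a log2 difference of −0.15 (SE 0.08, 95% interval −0.31 to 0.01, adjusted p = 0.124 by edgeR). Without WT male 3 this difference was −0.21 with an adjusted p of 0.0396, and without Het male 1 it was −0.20 with 0.0454, so leaving out either gave a call. Bcl6 was lower in 8 of 12 libraries, and its difference was −0.13 (SE 0.09, 95% interval −0.31 to 0.05, adjusted p = 0.282 by edgeR). Leaving out each library gave −0.207 to −0.102 for Cux1 and −0.174 to −0.07 for Bcl6.

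The gates differ in depth and in Rorb itself, and 2 alternatives bear on this. With every nucleus thinned to 800 UMIs before gating, Mef2c differed by 1.48 and Cux2 by −0.40 (adjusted p = 0.000555), both still called. The edgeR estimates of Cux1 and Bcl6 turned from negative to positive, as given at the end, while the mean CPM of Cux1 did not turn. The cutoff of 2 Rorb UMIs was kept at this depth. The Rorb gate then held 1516 nuclei at 3727 ± 269 CPM of Rorb, against 2739 at 1779 ± 168 CPM before. The immature gate held 4700 nuclei against 5151. Thinning thus changed the nuclei gated as well as their depth, and the 2 cannot be told apart. At this depth 53.4% of 4700 immature nuclei and 90.8% of 1516 Rorb nuclei had a Mef2c UMI, against 66.9% and 98.7% before thinning. L6 corticothalamic-like nuclei had 53.0% for Mef2c, and astroglia-like nuclei had 16.6%. A Cux2 UMI was found in 32.0% of immature and 23.2% of Rorb nuclei (51.2% and 42.2% before thinning), with 2.15% in L6 corticothalamic-like and 3.81% in astroglia-like nuclei. For Cux1 the shares were 44.5% and 41.0%, with 6.94% in L6 corticothalamic-like and 21.2% in astroglia-like nuclei. For Bcl6 they were 6.94% and 8.18%, with 0.726% and 2.91% in the same classes. How much of the shares outside the gates came from free RNA was not tested.

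A second mature gate without Rorb took 1526 upper-layer nuclei by UMIs of Kcnh5, Whrn and Rspo1, and the immature gate was set without its Rorb rule (6229 nuclei). Rorb is then in neither rule and could be measured. These genes are the rest of the Rorb marker list, so a higher Rorb is in part set by that choice. Of them, Kcnh5 alone was raised in the Rorb gate. The name mature stands for fewer than 2 Unc5d UMIs and a low immature score, and no marker of maturity was used. Rorb was at 228 ± 98.5 CPM in the immature and 1089 ± 184 CPM in the mature nuclei, a log2 difference of 2.41 (SE 0.12, adjusted p = 3.91e-19 by edgeR), and was higher in 12 of 12 libraries. Mef2c differed by 1.42, as in the Rorb gate. Cux2 did not differ past the threshold (0.005, 95% interval −0.14 to 0.15, adjusted p = 0.976), and Cux1 was higher in the mature nuclei by 0.22 (adjusted p = 0.0052), where 15.3% of all genes tested were called higher. Mef2c was thus called higher with either mature gate, Cux2 was called lower with the Rorb gate alone, and Cux1 changed sign between them. The difference between the mature gates was itself not tested.

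Upper-layer nuclei were also binned by their UMIs of Unc5d, a gene that both gates use, and mean depth stayed between 2268 and 2368 UMIs per nucleus. Unc5d is also in the upper-layer list that admitted nuclei to the set. Nuclei without an Unc5d UMI therefore entered through other markers, among them those of the general excitatory list, which holds Sla. The part of this selection in the trends over the bins was not tested. From 0 Unc5d UMIs through 1, 2 to 3, 4 to 7 and 8 or more, Mef2c averaged 3780 ± 694, 3607 ± 554, 3361 ± 459, 2809 ± 406 and 1833 ± 274 CPM. It was lower in the top bin than in the bottom bin in 12 of 12 libraries. Cux1 went the other way, from 543 ± 135 to 745 ± 119 CPM, and Cux2 from 336 ± 101 to 477 ± 56.0 CPM, both in 12 of 12 libraries. Bcl6 was highest in the middle, at 72.7, 87.4, 102, 101 and 91.5 CPM in order, and higher in the top than in the bottom bin in 9 of 12. Rorb had 570, 685, 782, 683 and 353 CPM and was lower in the top bin in 9 of 12 libraries.

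**Figure D3:**
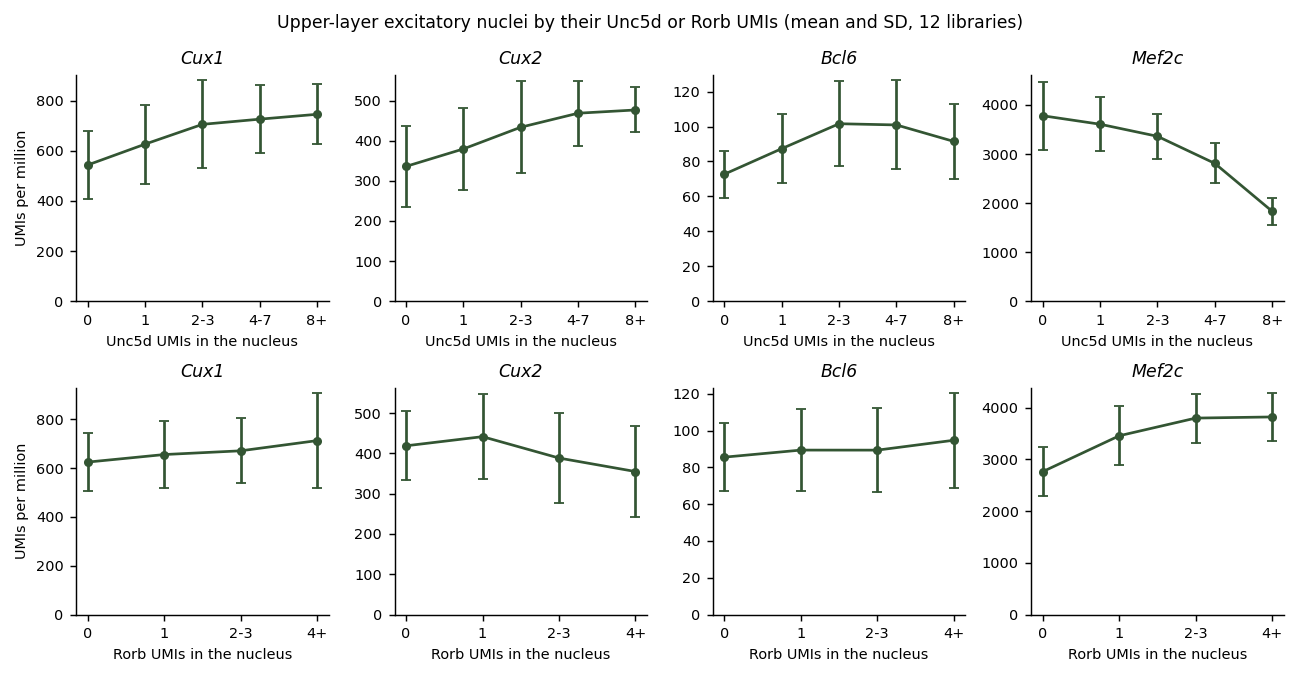
Mean level (CPM, error bars SD over 12 libraries) of each gene in upper-layer nuclei binned by their UMIs of Unc5d and of Rorb. Mef2c falls from 3780 to 1833 CPM over the Unc5d bins and rises from 2764 to 3821 CPM over the Rorb bins.

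Binned by Rorb UMIs (0, 1, 2 to 3, and 4 or more), Mef2c averaged 2764 ± 478, 3457 ± 568, 3799 ± 473 and 3821 ± 463 CPM, higher in the top bin in 12 of 12 libraries. Cux2 averaged 419, 442, 389 and 355 CPM and was lower in the top bin in 9 of 12 libraries. Cux1 (624 to 712 CPM, higher in 8 of 12) and Bcl6 (85.6 to 94.8 CPM, higher in 6 and lower in 6) had no common direction. Depth rose along these bins from 2086 to 3142 UMIs per nucleus, and its part was not tested.

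Other transcription factors of the cortex changed between the same gates, where 37.5% of all genes were called (1681 higher and 1473 lower of 8409), and the list counts stand beside that share. Of 16 upper-layer factors listed, 8 were used by the gates, and of the other 8 tested 2 were higher and 5 lower in the Rorb gate, with a median log2 difference of −0.41 against −0.02 over all genes. Zbtb20, a zinc finger repressor of neuronal subtype timing, was 6.56-fold lower (adjusted p = 2.46e-23 by edgeR). Bcl11a fell by 1.11 on the log2 scale and the POU factor Pou3f3 fell by 0.95. Of 4 testable deep-layer factors 3 were lower, Nfib (−1.35), Etv1 (−1.26) and Foxp4 (−0.64), and Sox5 was higher (0.26), with a median of −0.95. Of 3 paralogs of the members 2 were higher. These were Rora, the relative of Rorb, at 5.69-fold (log2 2.51, adjusted p = 6.54e-21), and Mef2a at 1.17-fold. Among 5 genes tied to the members in the literature, the class II deacetylase Hdac4, a partner of Mef2 factors, was higher by 0.24, and the Bcl6 corepressor gene Bcor (−0.44) and the cyclin gene Ccnd2 (−0.67) were lower.

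Het and WT libraries were compared next, the contrast the study was built on. No member passed the threshold in any of 18 classes. DESeq2 called 0 members, in a set of tests that was not the same as that of edgeR. With edgeR there were 74 tests of a member in a class and 0 were called, where 0.00388% of all 103104 tests of a gene in a class were. At an unadjusted p under 0.05 there were 13, or 12 higher and 1 lower in Het, with 6.98% over all genes. The smallest adjusted p was 0.219. In excitatory classes 24 of 28 differences were positive, and 30 of 46 in the others. The share of positive differences over all genes is not reported here, so these counts cannot be set against it. Tests of the same gene in several classes share their animals, and classes share free RNA, so these counts are not independent. The 12 libraries are separate animals, and 3 of the 4 Het animals were male. The P1 animals came from several litters, and the litter of each was not given, so the part of litter was not tested.

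**Figure D4:**
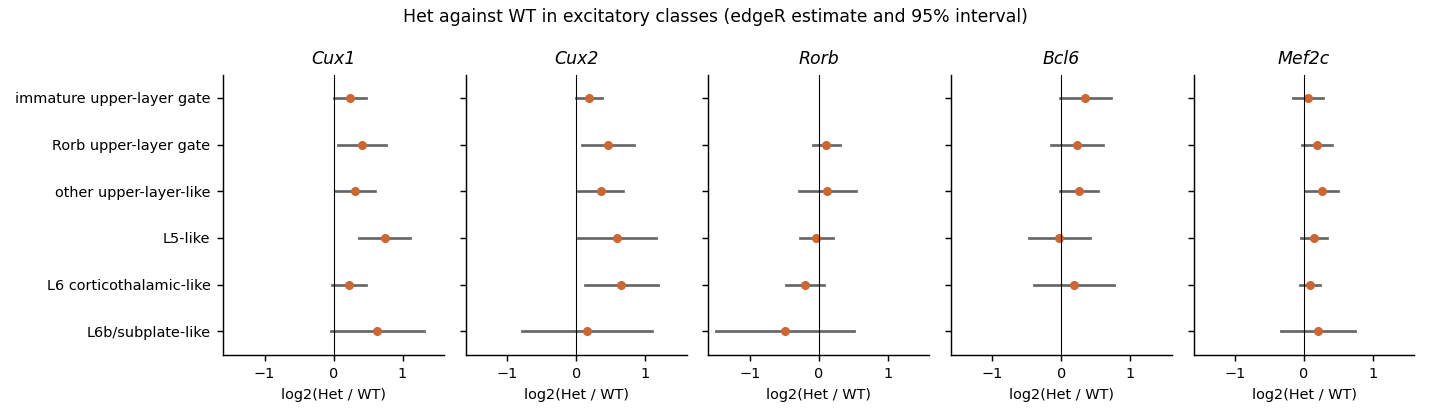
Difference between Het and WT (horizontal axis, log2 scale) of each member in 6 excitatory classes (rows), with the edgeR estimate as a point and its 95% interval as a line, where the gene was tested. Cux1 and Cux2 lie above 0 in each class shown, from 0.15 for Cux2 in L6b and subplate-like nuclei to 0.74 for Cux1 in L5-like nuclei, and no difference passes after adjustment.

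In the immature gate Cux1 was at 901, 976, 924 and 845 CPM in Het male 1 to 3 and Het female 1, and from 577 through a median of 777 to 961 CPM in WT. All 4 Het libraries were above the WT median and 1 was above the highest WT library. The log2 difference was 0.24 (SE 0.11, adjusted p = 0.566 by edgeR), and Cux1 was the 1 of 4 members tested there at an unadjusted p under 0.05 and higher, where 3.39% of all genes were. It was 0.12 with the stricter gate and 0.16 with the replicate block, which held 4 WT and 4 Het libraries. The unadjusted p was above 0.05 in both, with sex as a term, with male libraries alone, with all barcodes, and without any 1 of WT male 1 and 5, WT female 2 and 3 and Het male 1 to 3. Cux2 was at 592, 634, 584 and 542 CPM in Het and from 426 through 507 to 603 CPM in WT, a difference of 0.19 (SE 0.09, adjusted p = 0.595). Mef2c was at 1860.1, 1747, 1438 and 1686 CPM in Het and from 1320.4 through 1531 to 1932 CPM in WT, and did not differ beyond the spread (0.06, 95% interval −0.15 to 0.27, adjusted p = 0.925), with 0.006 without Het male 1 and 0.13 without Het male 3. Bcl6 was at 96.5, 125, 101 and 148 CPM in Het and from 48.6 through 95.3 to 127 CPM in WT (0.35, SE 0.18, adjusted p = 0.611). Without Het female 1, its highest library, the Bcl6 difference was 0.23, and with male libraries alone it was 0.15.

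In the Rorb gate Cux2 was at 577, 346, 463 and 242 CPM in Het male 1 to 3 and Het female 1, and from 221 through 297 to 370 CPM in WT. Het male 1 and Het male 3 were above the WT range and Het female 1 was below the WT median. The difference was 0.46 (SE 0.18, adjusted p = 0.522 by edgeR). It was 0.26 without Het male 1 (adjusted p = 0.771) and 0.63 without Het female 1 (adjusted p = 0.0578). Cux1 was at 1017, 745, 829 and 610 CPM in Het and from 437 through 613 to 899 CPM in WT (0.41, SE 0.17, adjusted p = 0.561). These were 2 of the 5 members higher at an unadjusted p under 0.05, where 3.44% of all genes were. With no filter on low counts Cux2 (0.51, adjusted p = 0.00369 by edgeR) and Cux1 (0.45, adjusted p = 0.011) were called, among 119 of 26479 genes. Mef2c was at 4255, 4627, 4842 and 3554 CPM in Het and from 3180.0 through 3741 to 4506 CPM in WT (0.19, SE 0.10, adjusted p = 0.689). Bcl6 differed by 0.22, and by 0.055 without Het male 2 and 0.36 without Het male 3, and Rorb, whose floor is set by the gate, by 0.11. The Rorb value was 0.064 without WT female 3 and 0.050 with male libraries alone. The genotype difference did not itself differ between the gates past the threshold. The interaction was 0.26 for Cux2 (SE 0.16, adjusted p = 0.871 by edgeR), 0.18 for Cux1, 0.13 for Mef2c and −0.12 for Bcl6, with 0.0% of 8409 genes called and 507 genes at an unadjusted p under 0.05. Leaving out each library gave 0.077 (without Het male 1) to 0.42 (without Het female 1) for Cux2, 0.057 (without Het male 1) to 0.26 for Cux1 and −0.24 (without WT male 2) to −0.03 (without WT male 1) for Bcl6. The stricter gate gave 0.36 for Cux1 and 0.15 for Cux2, and all deposited barcodes gave 0.31 and 0.36.

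Summed over all excitatory nuclei, 4 of the 5 members were higher in Het at an unadjusted p under 0.05 (5.65% of all genes). The differences were 0.54 for Cux2 (SE 0.21, adjusted p = 0.325 by edgeR), 0.48 for Cux1, 0.42 for Bcl6 and 0.32 for Mef2c, with 0.19 for Rorb. In such a sum more cells of a type and more RNA per cell cannot be told apart. The upper-layer set, which also holds excitatory nuclei that no layer list named, is not a pure upper-layer share. It made up 64.3 ± 9.32% of excitatory nuclei in WT (48.8 to 75.9%, n = 8) and 84.1, 80.4, 76.6 and 58.0% in Het male 1 to 3 and Het female 1 (p = 0.125, two-sided exact permutation test). L6 corticothalamic-like nuclei made up 28.4 ± 9.31% in WT and 18.6 ± 9.10% in Het (p = 0.113, two-sided exact permutation test), with 31.6% in Het female 1. Both are shares of the same excitatory total, so they are not independent. The immature gate held 13.7 ± 2.95% of excitatory nuclei in WT and 16.1 ± 2.13% in Het (p = 0.184, two-sided exact permutation test, n = 8 and 4). The Rorb gate held 7.55 ± 2.21% and 8.64 ± 1.14% (p = 0.356, two-sided exact permutation test).

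The smallest p of a member was that of Cux1 in L5-like nuclei, where the gene is low. Het male 1 to 3 and Het female 1 had 185, 214, 232 and 112 CPM, and the WT libraries ran from 66.6 through 105 to 165 CPM. The 3 male Het libraries were above the WT range. The log2 difference was 0.74 (SE 0.18, adjusted p = 0.219 by edgeR). Beside it, the share of the upper-layer set was also above the WT range in these 3 libraries and below the WT mean in Het female 1, as given above. In the same L5-like nuclei the immature upper-layer gene Unc5d was at 373 ± 67.5 CPM in WT and 477 ± 66.2 CPM in Het, and Zbtb20 at 254 ± 87.8 and 441 ± 91.0 CPM. Rora was at 240 ± 86.7 CPM in WT and 449 ± 189 CPM in Het. Zbtb20 and Rora are not genes of upper-layer neurons alone. Astroglia-like nuclei averaged 3374 CPM of Zbtb20, against 1207 CPM in the immature gate. They averaged 2066 CPM of Rora, against 1452 CPM in the Rorb gate. In L6 corticothalamic-like nuclei Zbtb20 was also higher in Het, at 236.5 ± 78.4 CPM in WT and 516 ± 408 CPM in Het. Cux2 was at 45.5 ± 18.35 CPM in WT and 70.4 ± 29.95 CPM in Het there, and Bcl11a at 274 ± 63.1 and 432 ± 170 CPM. Among genes of upper-layer or immature neurons that were about level there, Rorb was at 437 ± 63.3 and 426 ± 73.5 CPM, Bcl6 at 30.1 ± 7.16 and 29.8 ± 6.13 CPM and Sox11 at 237 ± 73.3 and 232 ± 99.3 CPM. Rorb is not low in L5-like nuclei (433 CPM against 504 CPM in the other upper-layer-like nuclei). Bcl6 there rests on 182 UMIs. The interneuron gene Gad2 was at 20.1 ± 12.1 CPM in WT and 42.7 ± 17.5 CPM in Het, and Gad1 at 11.2 ± 5.84 and 15.4 ± 3.98 CPM. The glial gene Slc1a3 was at 84.2 ± 26.9 CPM in WT and 90.9 ± 18.2 CPM in Het, and the immature neuron gene Dcx at 364 ± 49.8 and 384 ± 55.6 CPM. The part of these cells in the Cux1 difference was not tested. The 1 member lower at an unadjusted p under 0.05 was Rorb in inhibitory-like nuclei outside the MGE and CGE classes, with a difference of −0.61 (SE 0.22, adjusted p = 0.84).

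Het female 1 had the lowest Cux1 and Cux2 levels of the 4 Het libraries in both gates and in the other upper-layer-like nuclei. The same held in L5-like and L6 corticothalamic-like nuclei and over all excitatory nuclei. A fit without this library therefore has a higher Het mean of both genes by construction. Without it, edgeR called 2 of the member tests, Cux2 in the other upper-layer-like nuclei (0.52, adjusted p = 0.0415) and Cux1 in L5-like nuclei (0.95, adjusted p = 0.00725). Over all genes 236 of 12479 were then called in the first class and 16 of 6410 in the second, against 0 in each with all libraries. Over all excitatory nuclei Cux2 (0.75, adjusted p = 0.0294) and Mef2c (0.46, adjusted p = 0.0307) were then called, among 396 of 15712 genes. With male libraries alone, 5 WT and 3 Het, Cux1 in L5-like nuclei was called (0.86, adjusted p = 0.0367), among 18 of 6267 genes. Sex and animal cannot be told apart in Het, since 1 Het library was female.

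Among the related factors, edgeR called no gene of the upper-layer, deep-layer, paralog or literature lists between genotypes in either gate. The smallest p of the upper-layer list was for Lmo4, a LIM-only cofactor, with −0.68 in the immature gate (adjusted p = 0.26) and −0.90 in the Rorb gate (adjusted p = 0.413). Next by p were Tox in the immature gate (−0.32, adjusted p = 0.625 by edgeR) and, the other way, Bcl11a in the Rorb gate (0.41, adjusted p = 0.469). Of 15 upper-layer factors tested in each gate the median difference was 0.07 and 0.08, against −0.01 over all genes in both. Among deep-layer factors Tle4 differed by 0.39 (adjusted p = 0.414 by edgeR) and Sox5 by −0.35 (adjusted p = 0.464) in the immature gate. In the Rorb gate Zfpm2 differed by −0.57 (adjusted p = 0.477) and Foxp2 by 0.58 (adjusted p = 0.645). The medians of the deep-layer list were 0.004 in the immature and −0.031 in the Rorb gate.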

How the data were processed

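Nuclei from 12 P1 forebrains (1 library per animal, grouped by the genotype in the labels) were profiled by split-pool snRNAseq. The authors assigned UMIs to genes of mm10 with the ScaleRna workflow and deposited expected counts without normalization, in which a UMI matching several genes is divided. Per the labels, Seurat 4.3.0 was used by the authors afterwards. Divided values were 6.74 to 7.05% of entries and 1.31 to 2.67% for the members. Total UMIs per library were 15439429 to 40784144, and 10398270 to 25602840 in kept nuclei.

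Following the methods of the study, a nucleus needed 800 to 6000 UMIs from 300 to 3000 genes. Its mitochondrial share could not exceed 1%, and its log number of genes had to reach 0.9 of its log number of UMIs. No doublet caller was run, and nuclei passing marker lists of more than 1 lineage were left out. A list passed with at least 3 UMIs of at least 2 genes at 2-fold or more over expectation, and the best list named the class. Nuclei named by the upper-layer list or by the general excitatory list formed the upper-layer set. A nucleus that passed no list joined this set with either of these lists at 1.41-fold or more. Gates were set after the files had been seen, and the members and lists were chosen with earlier results of these data known. The deposited counts were summed per library and class (at least 10 nuclei, in at least 3 libraries per genotype), rounded, scaled by TMM, filtered with filterByExpr and tested with edgeR 4.0.16 (R 4.3.3), quasi-likelihood, with Benjamini-Hochberg adjustment over all genes of a comparison. The design had assumed whole counts. Calls needed an adjusted p under 0.05 and a log2 difference of at least 0.2. Genes used by a gate were not tested between gates. Shares were compared by exact permutation over 495 groupings. The code was tested on simulated counts. For genotype and for shares, p-values measure the spread between these animals. Those between gates and of the interaction rest on the spread of differences within libraries. DESeq2 1.42.0, RLE scaling, no filter on low counts, all barcodes, mixed nuclei, stricter gates, thinning, sex as a term, male libraries, a replicate block and leaving out each library were tried. From each list up to 4 called genes with the smallest adjusted p were named, or up to 2 by unadjusted p where none was called, and for each member the 3 genes most alike. Positions are from GENCODE (GRCm38) and start windows from RefSeq (GRCm38.p6). Values of some genes that the rules name are not reported here.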

Additional observations from a re-analysis of the deposited data

Results flagged for a closer look

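Of 32 groups of 4 to 8 libraries examined for a library far from the rest, 1 met the criterion, and chance gives about 1 in 20. Rorb in the other upper-layer-like nuclei of Het male 1 was at 761.5 CPM. The other 3 Het libraries were at 422 to 479 CPM, and the highest WT library was at 683 CPM.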

How the results depend on the processing

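Of 470 alternatives 450 kept the direction and the side of the threshold. The 0 calls of members between genotypes became 8 with no filter on low counts, 1 with male libraries and 2 without Het female 1, and leaving out each library gave 0 to 2. Those without a filter were Cux1 and Cux2 in the Rorb gate, and Cux1, Cux2 and Mef2c in the other upper-layer-like nuclei. The rest were Cux1 in L5-like, Cux2 in L6 corticothalamic-like and Mef2c in D1 spiny projection neuron-like nuclei. Over all genes that fit called 119 of 26479 in the Rorb gate and 353 of 34729 in other upper-layer-like nuclei. In L5-like nuclei it called 46 of 25566. The shares for the other classes are not reported here. Over all genes, the 0 calls in the immature gate, Rorb gate and excitatory sum became 101, 119 and 69 with no filter, 15, 71 and 141 with male libraries, 0, 11 and 51 with DESeq2, and 51, 89 and 396 without Het female 1. The cause was not tested. Between the gates, the 2 calls became 4 with all barcodes, where the share of all genes called is not reported here. Leaving out each library gave 2 to 3, with Mef2c at 1.39 to 1.46 and Cux2 at −0.64 to −0.52. With the mature gate without Rorb the differences were 0.22 for Cux1, 0.005 for Cux2 and 0.015 for Bcl6, and thinning gave 0.023 for Cux1 and 0.31 for Bcl6, each against a negative value. These are edgeR estimates after TMM scaling, and the mean CPM did not turn in each case. Without Rorb in the rule, Cux2 (530 and 494 CPM) and Bcl6 (98.7 and 88.7 CPM) stayed lower in the mature nuclei. After thinning, Cux1 stayed lower in the Rorb gate (828 and 772 CPM). For the interaction 0 to 0 members were called on leaving out each library, with Mef2c at −0.009 (without Het male 3, reversed) to 0.226. It was 0.018 for Bcl6 with the stricter gate, also reversed, and over all genes the 0 calls became 50 with no filter and 34 without Het female 1. Shares differed by 1.74 to 3.4 percentage points for the immature gate and 0.622 to 1.52 for the Rorb gate on leaving out each library, with 0 to 0 past the threshold.

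WT and Het share replicate numbers in the labels, but the labels name no shared litter or day. Deviations of same-numbered libraries correlated at −0.05, 0.16 and 0.30 for the males and 0.67 for the females over 6414 genes. Among the 4 WT libraries that share a number with a Het library, 1 of 4 Het libraries correlated best with its own number. This was Het female 1, and 1 of those WT libraries was female, so number and sex cannot be told apart in that match. Not every pair passed 0.1, so the numbers were not taken to pair the animals. The replicate block kept only numbers found in both genotypes, 4 WT and 4 Het libraries. Its shifts therefore mix the block with the loss of WT libraries, and these were not told apart. With it 0 members were called. Bcl6 was at −0.004 in place of 0.22 in the Rorb gate, 0.12 in place of 0.35 in the immature gate and 0.22 in place of 0.42 over all excitatory nuclei. Cux2 in L5-like nuclei was at 0.26 in place of 0.59. Cux1 was at 0.16 in place of 0.24 in the immature gate and 0.28 in place of 0.48 over all excitatory nuclei. Rorb was at 0.054 in place of 0.11 in the Rorb gate and 0.12 in place of 0.19 over all excitatory nuclei. Others moved away from 0. Mef2c in the immature gate was at 0.15 in place of 0.06, and Cux2 in the Rorb gate at 0.50 in place of 0.46. In L6 corticothalamic-like nuclei Cux2 was at 0.76 in place of 0.65 and Rorb at −0.37 in place of −0.20. The calls over all genes were 2, 22 and 5. Bcl6, with 909 and 635 UMIs in the gates, is the member most limited by depth. Sums of nuclei were not corrected for free RNA.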
